A study of Mus musculus with 2 samples.

Results

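Cluster C1 is a group of cells of the mouse melanoma line B16F0 that the authors' deposited cell table places together. Its members were taken as the B16F0 cells to which that table gives the cluster name C1. They number 816 of 2582 B16F0 cells and of 4156 cells in all. The authors' table calls 597 of them non-cycling and 219 cycling. Single-cell 3' libraries of poly(A) RNA were made with a droplet method that tags each molecule with a unique molecular identifier (UMI). The labels call B16F0 parental and B16F10, the other line of the study, its highly metastatic subclone. They give 1 library for each of them and name no treatment, genetic change or time point.

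B16 is a pigmented melanoma of the skin of a C57BL/6 mouse. Melanoma cells keep much of the melanocyte programme, in which the transcription factors MITF, SOX10 and PAX3 switch on the enzymes and the fibrous scaffold of the melanosome, the organelle that makes and stores melanin. Tyrosinase, encoded by Tyr, carries out the first and rate-limiting step. Lines of this kind hold cells that differ in pigment gene levels, in matrix and motility genes and in the rate of division.

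The nearest counterpart of C1 is cluster C3 of the same line, which holds 569 non-cycling and 71 cycling cells. B16F0 clusters C2 and C4 are made of 641 and 467 cycling cells, with 3 and 2 non-cycling ones. The main comparison is therefore between the non-cycling cells of C1 and those of C3. For each class the raw UMIs of its cells were added up gene by gene and divided by the class total, and expressed as CPM, the UMIs of the gene per 1000000 UMIs. Clusters were made from the expression of these same cells and each line is 1 library, so all differences between clusters are descriptions, without a test or a replicate check. The 95% intervals given are exact and cover counting error only.

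Depth differed little between the classes. Non-cycling C1 cells held a median of 33409 UMIs and 4954 genes, and non-cycling C3 cells 34230 UMIs and 5044 genes. Mitochondrially encoded transcripts made up a median of 5.61% of the UMIs of a C1 cell and 5.20% of those of a C3 cell, and ribosomal protein transcripts 29.8% and 29.2%. The summed depth was 20989015 UMIs for C1 and 20127238 for C3. No barcode of a B16F0 C1 cell was among the 6 barcodes that occur in both libraries. All 8 melanocyte markers were detected, at 8370 CPM in sum over all C1 cells and 10143 CPM over the other B16F0 cells. Summed markers stood at 6.53 CPM for fibroblasts (6 of 10 in the table), 11.1 for macrophages (3 of 10) and 0.725 for keratinocytes (3 of 10). None of the 10 T and NK cell or 6 erythroid markers is in the table. Endothelial markers summed to 71.7 CPM, of which Egfl7 alone gave 71.3, against 63.9 for Egfl7 in the other B16F0 cells. The melanoma label therefore fits the markers of C1.

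Non-cycling C1 cells had less tyrosinase, galectin-3 and other transcripts, pigment genes among them, than C3 cells, and more of a smaller set led by the DNA repair gene Rad54l and the calcium-binding protein gene S100a6. Genes were compared where the higher class had 20 CPM or more, which left 4819. C1 exceeded C3 by 1.5-fold or more in 137 of them (2.84%), and C3 exceeded C1 by as much in 252 (5.23%). The 2-fold mark was passed by 46 genes upward in C1 (0.955%) and 56 downward (1.16%). A log2 ratio of -0.01 marked the middle of all genes, which puts both classes on 1 scale for the typical gene. Of the lower genes, 87 lie on chromosome 14 (60.8% of its 143 compared genes) and 49 on chromosome 1 (17.6% of 279). Chromosomes 2 and 7 held 19 (5.23% of 363) and 16 (5.14% of 311), near the 5.23% over all genes. On chromosome 14 lie 0 of the higher genes.

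**Figure D1:**
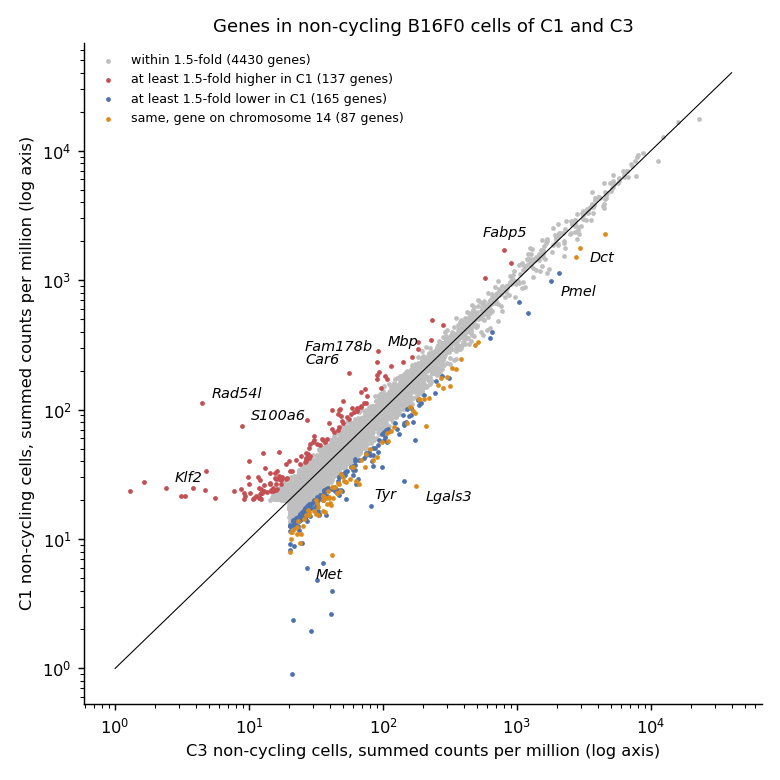
Summed CPM of each of 4819 genes in non-cycling C3 cells (horizontal, log axis) and non-cycling C1 cells (vertical, log axis), each point 1 gene and the line equal levels. The 137 higher genes (red) are led by Rad54l and S100a6, and 87 of the 252 lower genes (orange) lie on chromosome 14.

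Rad54l, which encodes a motor protein of homologous recombination repair, had the highest ratio among genes with at least 50 CPM. It stood at 112 CPM (107 to 116) in non-cycling C1 cells and 4.47 CPM (3.6 to 5.5) in non-cycling C3 cells, a log2 ratio of 4.64 (4.34 to 4.96). To compare shares of cells, each cell was thinned to 19718 UMIs, which left out 75 C1 and 49 C3 cells. At that depth Rad54l was seen in 84.6% of non-cycling C1 cells (81.3 to 87.5) and in 4.79% of C3 cells (3.12 to 6.99), against 92.6% and 8.96% without thinning. Its count per thinned cell ran from 0 to 9 with a median of 2 in C1 and from 0 to 8 with a median of 0 in C3, so the ranges overlapped while the bulk of the cells did not. The cultures offer no cell type known to lack the gene, so a share due to free RNA was not estimated. Rad54l lies on chromosome 4 from 116094264 to 116123690 on the minus strand of GRCm38. It shares 2780 bases with Lrrc41 on the opposite strand, and no source used here states the strand setting of the counting, so reads from the shared stretch cannot be told apart. Lrrc41 itself stood at 11.9 CPM in C1 and 15.9 CPM in C3.

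S100a6, a small calcium-binding protein gene active in motile and mesenchymal cells, was unevenly spread within C1. It stood at 74.8 CPM (71.2 to 78.6) in C1 and 8.84 CPM (7.59 to 10.2) in C3, a log2 ratio of 3.08 (2.86 to 3.31). Only 34.1% of thinned C1 cells (30.1 to 38.2) held a UMI of it, against 6.13% of C3 cells (4.23 to 8.54), and its count per thinned C1 cell ran from 0 to 31 with a median of 0. Unthinned, the shares were 42.7% and 10.2%. The neighbouring gene S100a4, at the same chromosome 3 locus, was at 23.6 CPM (21.5 to 25.8) in C1 and 1.29 CPM (0.844 to 1.89) in C3. S100a11 was at 197 and 93.1 CPM and S100a10 at 257 and 183 CPM. S100a1, which lies at the locus too, went the other way, with 113 CPM in C1 and 193 CPM in C3. The S100a genes on chromosome 3 were thus not shifted as a block.

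The other genes at the upper end have varied roles. Car6, a secreted carbonic anhydrase gene, stood at 193 CPM (187 to 199) in C1 and 55.5 CPM (52.3 to 58.8) in C3. Mbp, the myelin basic protein gene, stood at 284 CPM and 92.2 CPM and was seen in 95.2% of thinned C1 cells against 59% of C3 cells (97.7% and 65.0% unthinned). Fgd2, an exchange factor for the GTPase CDC42, stood at 83.3 and 26.9 CPM, and Fam178b at 234 and 90.4 CPM. Fabp5, a fatty acid-binding protein gene, was abundant in both classes. It had 1710 CPM (1693 to 1728) in C1 and 799 CPM (787 to 812) in C3, with a median of 31 against 12 thinned UMIs per cell. Mef2c, a transcription factor gene of muscle and neural crest derivatives, stood at 116 CPM (112 to 121) and 50.6 CPM (47.5 to 53.8). The remaining members of the upper 15 were the calponin gene Cnn2, the brain creatine kinase gene Ckb, the procollagen processing enhancer gene Pcolce, S100a11, the kinase gene Map2k5, the LIM-only factor gene Lmo1 and the neuronal tubulin gene Tubb3. Their log2 ratios ran from 1.01 for Tubb3 to 1.25 for Cnn2. These were shifts of a whole population for Mbp, Fam178b and Fabp5, which most C1 cells expressed, and of a minority for S100a6.

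At the lower end stood Lgals3, which encodes the galactoside-binding lectin galectin-3. It was at 25.6 CPM (23.5 to 27.9) in C1 and 177 CPM (172 to 183) in C3, a log2 ratio of -2.79 (-2.92 to -2.66). It was seen in 18.3% of thinned C1 cells and 54.2% of C3 cells, against 25.8% and 60.6% unthinned. Both classes held cells without it, and its thinned counts reached 34 UMIs in C1 and 60 in C3. Arfgef3, related to ARF exchange factors, followed Tyr in rank with 17.9 CPM (16.2 to 19.8) in C1 and 81.8 CPM (77.9 to 85.9) in C3. Creg1, a secreted glycoprotein gene, stood at 58.5 and 174 CPM. Ero1l, the oxidase that forms disulfide bonds in the endoplasmic reticulum, stood at 75 and 211 CPM. Cited1, a transcriptional coactivator gene known from pigment cells, stood at 36.0 CPM (33.4 to 38.6) and 98.4 CPM (94.1 to 103). Apoe, the lipid carrier gene, was the most abundant of the 15, with 555 CPM (545 to 566) in C1 and 1199 CPM (1184 to 1214) in C3.

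The other lower genes were the tubulin gene Tuba4a, the nucleolar gene Ngdn, the elastic fibre gene Fbln5, the sulfiredoxin gene Srxn1, Bin3, the cytokine receptor gene Cntfr, the heme oxygenase gene Hmox1 and the DNA repair endonuclease gene Apex1. Their log2 ratios ran from -1.37 for Tuba4a to -1.06 for Apex1. Lgals3, Ero1l, Ngdn, Bin3 and Apex1 lie on chromosome 14. Tuba4a shares 1379 bases with Stk16, Arfgef3 481 bases with Gm32926 and Bin3 43 bases with Ccar2, each on the opposite strand. At the upper end Pcolce shares 1282 bases with Fbxo24 on the same strand and 933 with Gm36266 on the opposite one. Fbxo24 stood at 0.191 CPM in C1 and 0 CPM in C3. The ratios of Tuba4a, Arfgef3, Bin3 and Pcolce carry the same uncertainty as that of Rad54l.

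The same genes were read in cells that the main comparison did not use, 219 cycling C1 and 71 cycling C3 cells of the same library. Those cells were clustered too, so this second reading is also a description. All 15 genes of the upper end were at least 1.5-fold higher in cycling C1 than in cycling C3 cells, and all 15 of the lower end at least 1.5-fold lower. Rad54l stood at 96.8 CPM in cycling C1 and 10.8 CPM in cycling C3, a log2 ratio of 3.16 (2.65 to 3.73), smaller than among non-cycling cells. Lgals3 stood at 52.9 and 376 CPM, higher than in non-cycling cells in both clusters but at nearly the same ratio, -2.83 (-3.00 to -2.67). Of all 5000 genes at 20 CPM, 105 (2.10%) passed 1.5-fold upward in cycling C1 and 402 (8.04%) downward. Of the 137 genes higher among non-cycling cells 76 passed 1.5-fold among cycling cells, and of the 252 lower ones 207 did.

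**Figure D2:**
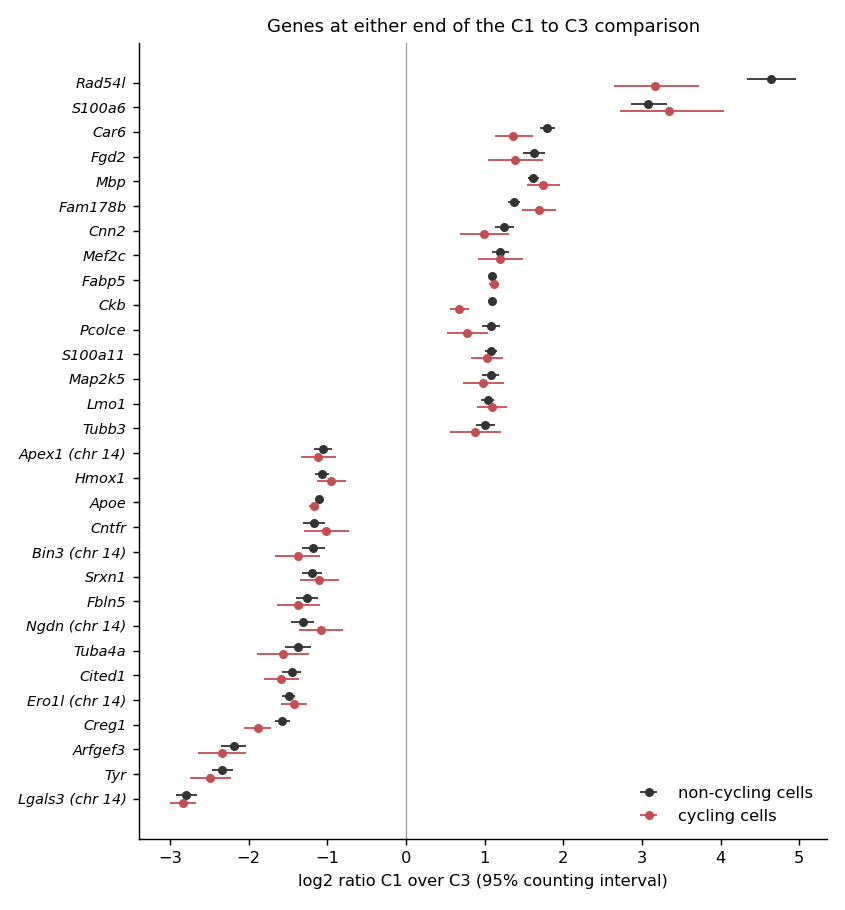
Log2 ratio of C1 over C3 for the 15 highest and 15 lowest genes with at least 50 CPM, in non-cycling (black) and cycling (red) B16F0 cells, with 95% counting intervals as bars. All 30 genes lie on the same side of 0 in both sets of cells, and Rad54l has the largest ratio of the upper end among non-cycling cells, 4.64.

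The cycling clusters C2 and C4 split along these genes as well. All 15 genes of either end were past 1.5-fold in the same direction in C2 against C4. Rad54l stood at 109 CPM in C2 and 19.1 CPM in C4, Tyr at 16 and 89.2 CPM, Lgals3 at 17.1 and 124 CPM, and Mbp at 209 and 70.6 CPM. C2 thus stood on the C1 side of these genes and C4 on the C3 side.

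Pigment genes were lower in C1 as a group, and tyrosinase most of all. Tyr stood at 28.3 CPM (26.0 to 30.6) in C1 and 142 CPM (137 to 148) in C3, a log2 ratio of -2.33 (-2.46 to -2.21). It was seen in 31.7% of thinned C1 cells (27.8 to 35.8) and 86.0% of C3 cells (82.7 to 88.9), against 39.0% and 90.3% unthinned. Its count per thinned cell ran from 0 to 7 with a median of 0 in C1 and from 0 to 11 with a median of 2 in C3. Among all 6935 genes with at least 10 CPM, the 1.5-fold mark was passed upward in C1 by 220 (3.17%) and downward by 375 (5.41%), around a median of -0.02. Of 22 melanin synthesis and melanosome genes, 20 reached 10 CPM, and 8 of these were lower by 1.5-fold or more, 0 higher and 12 between. Their median was -0.56. All 20 were below 0. Without Dct, the 1 member on chromosome 14, the median was -0.54.

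The differences were unequal among the melanin synthesis enzymes. Dct, dopachrome tautomerase, stood at 1771 CPM (1753 to 1789) in C1 and 2964 CPM (2940 to 2988) in C3, and Tyrp1, which acts after it, at 1126 and 1678 CPM, a log2 ratio of -0.58. Pmel, which builds the fibrils of the melanosome, stood at 981 CPM (968 to 995) and 1808 CPM (1789 to 1827). Trpm1, a melanocyte cation channel gene, stood at 64.7 and 131 CPM. Met, the receptor of hepatocyte growth factor and counted in this list as an MITF target, stood at 6.0 CPM (5.0 to 7.15) and 26.9 CPM (24.7 to 29.3). The protease gene Bace2, the melanosomal receptor gene Gpr143 and the transporter gene Slc45a2 completed the 8, with log2 ratios of -0.63, -0.62 and -0.60. Small differences were seen for Mlana, a melanosome biogenesis gene, at 2616 and 3014 CPM, the melanocortin receptor gene Mc1r at 67.8 and 76.4 CPM and the transport GTPase gene Rab32 at 34.9 and 37.5 CPM. The interval of the Rab32 ratio, -0.25 to 0.05, included 0.

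Cell by cell the pigment shift was broad rather than confined to a few cells. The 22 listed genes summed to a median of 231 UMIs per thinned C1 cell, with 90% of cells between 75 and 397. In C3 the median was 315 UMIs, with 90% of cells between 196 and 487. The ranges overlapped, and 82.2% of C1 cells lay below the C3 median. Among cycling cells, 221 of 7173 genes at 10 CPM (3.08%) passed 1.5-fold upward in C1 and 676 (9.42%) downward. There 12 of 21 pigment genes were lower and 0 higher, and their median was -0.66.

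**Figure D3:**
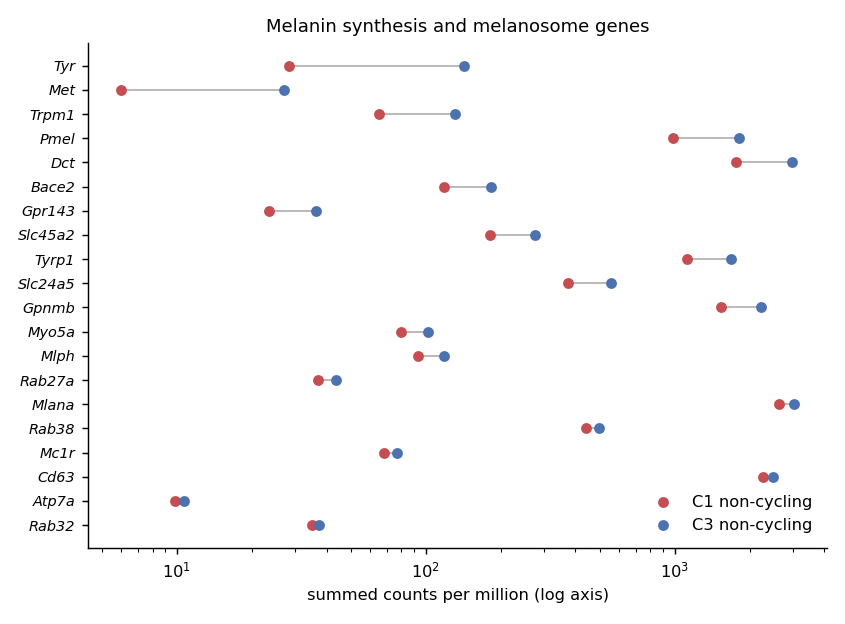
Summed CPM (log axis) of the 20 melanin synthesis and melanosome genes with at least 10 CPM in non-cycling C1 (red) and C3 (blue) cells, ordered by their ratio. All 20 red points lie left of the blue ones, with the widest gap for Tyr, 28.3 against 142 CPM.

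The regulators of the lineage differed less than the pigment genes. Mitf, the master regulator, stood at 91.8 CPM (87.7 to 95.9) in C1 and 112 CPM (107 to 117) in C3, a log2 ratio of -0.29 (-0.38 to -0.20). Sox10 was level, at 84.3 CPM (80.5 to 88.4) and 85.1 CPM (81.1 to 89.2). Pax3 was the lower member, at 90.6 and 161 CPM, a log2 ratio of -0.83 (-0.91 to -0.75), and Mef2c the higher one. Of 18 listed regulators 10 reached 10 CPM, with 1 higher, 1 lower and a median of -0.08. The shares of all genes at 10 CPM were 3.17% higher and 5.41% lower. The authors' deposited table also holds an MITF score, for which no source used here names the genes. Its median was 0.013 in non-cycling C1 cells (middle 50% from -0.268 to 0.239) and 0.280 in C3 cells (0.087 to 0.439).

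Because the pigment genes were lower together, the bases just before their starts are shown for the lower members for which RefSeq's promoter table (GRCm38.p6) has an entry, 4 of 8. MITF binds short E-box sequences, among them CATGTG and CACGTG, in the promoters of pigment genes. Each line below gives 250 bases 5' to 3' up to the gene's start, and the capitals mark CATGTG on either strand (CACATG on the other) or CACGTG, which reads the same on both. The Tyr window lies on chr7:87493513-87493762 (minus strand), the Trpm1 window on chr7:64153585-64153834 (plus), the Dct window on chr14:118052247-118052496 (minus) and the Met window on chr6:17463707-17463956 (plus).
Tyr: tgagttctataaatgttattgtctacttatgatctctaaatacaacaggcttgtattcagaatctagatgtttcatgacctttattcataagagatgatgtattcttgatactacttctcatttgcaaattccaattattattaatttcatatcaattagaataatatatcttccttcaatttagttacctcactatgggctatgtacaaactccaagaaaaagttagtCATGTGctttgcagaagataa
Trpm1: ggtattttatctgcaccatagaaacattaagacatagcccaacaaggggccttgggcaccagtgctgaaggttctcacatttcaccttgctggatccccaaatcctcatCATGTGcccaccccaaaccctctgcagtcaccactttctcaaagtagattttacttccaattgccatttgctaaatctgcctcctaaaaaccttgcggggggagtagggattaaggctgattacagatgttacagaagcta
Dct: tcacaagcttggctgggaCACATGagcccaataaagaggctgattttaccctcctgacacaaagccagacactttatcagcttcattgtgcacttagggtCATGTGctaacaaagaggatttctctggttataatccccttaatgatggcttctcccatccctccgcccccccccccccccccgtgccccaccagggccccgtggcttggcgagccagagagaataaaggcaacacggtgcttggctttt
Met: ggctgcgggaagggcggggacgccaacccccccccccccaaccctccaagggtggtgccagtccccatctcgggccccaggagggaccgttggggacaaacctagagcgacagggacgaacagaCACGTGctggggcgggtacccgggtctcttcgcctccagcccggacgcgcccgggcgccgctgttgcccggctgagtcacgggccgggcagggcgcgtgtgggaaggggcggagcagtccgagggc

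All 4 lower genes with a window held at least 1 of these motifs, 3 of them CATGTG, and 6 of the 10 other pigment genes with a window did. Of 32851 promoter windows of the same length, 12.3% held CATGTG, 6.02% CACGTG and 17.6% either. A gene can have several windows, such as Trpm1, whose second start has CACGTG in place of CATGTG. The pigment genes were counted over any of their windows, while the shares are of single windows, so they are not on the same scale. A match describes letters only, and binding was not measured. Why the pigment genes were lower was not tested.

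Mesenchymal and matrix genes were split. Of 25 listed, 17 reached 10 CPM, and 5 of these passed 1.5-fold upward and 1 downward around a median of 0.06. Over all genes at 10 CPM, 3.17% passed upward and 5.41% downward. The higher members were S100a4, S100a6, the basement membrane proteoglycan gene Hspg2, fibronectin (Fn1) and the protease inhibitor gene Timp3. Fn1 stood at 14.6 CPM (13.0 to 16.3) in C1 and 7.25 CPM (6.13 to 8.53) in C3. The membrane protease gene Mmp14, on chromosome 14, was the lower member with 25.3 and 44.1 CPM. Sparc, an abundant matricellular protein gene, stood at 380 and 364 CPM, a log2 ratio of 0.06, but had one of -0.81 among cycling cells. Among those cells the list had 3 members higher and 3 lower, and Timp3 and Fn1 were within 1.5-fold, at 0.19 and 0.54. There 3.08% of all genes at 10 CPM passed 1.5-fold upward and 9.42% downward. In non-cycling cells Vim, the mesenchymal filament gene, stood at 1455 and 1197 CPM. Of the neural crest and dedifferentiation list, 6 of 20 reached 10 CPM, with 2 higher and 1 lower. Cyr61, a matrix protein gene and target of the Hippo pathway, stood at 173 CPM (167 to 179) and 90.6 CPM (86.5 to 94.9). Nestin (Nes), a filament of neural progenitors, stood at 29.8 and 17.5 CPM, and Tnfrsf12a, the TWEAK receptor gene, at 88.6 and 156 CPM.

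Immediate early genes, which respond within minutes to growth factors or stress, leaned towards C1. Of 14 members at 10 CPM, 5 passed 1.5-fold upward in C1, 0 downward and 9 neither. Of all genes at 10 CPM 3.17% passed upward and 5.41% downward. The median was 0.42, and 0.12 among cycling cells. Klf2 stood at 24.9 CPM (22.8 to 27.1) in C1 and 2.38 CPM (1.76 to 3.16) in C3. Klf4 had 23.5 and 7.70 CPM, Nr4a1 32.2 and 14.4 CPM, Fos 32.4 and 15.6 CPM, and the mRNA decay gene Zfp36 11.9 and 4.47 CPM. Jun and Atf3 lay on the other side, with log2 ratios of -0.37 and -0.45. Klf2 was seen in 25.5% of thinned C1 cells and 4.98% of C3 cells (32.8% and 7.73% unthinned), and its log2 ratio among cycling cells was smaller, 1.39 (0.47 to 2.45). Per thinned cell the list summed to a median of 11 UMIs in C1 and 10 in C3.

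Antioxidant genes leaned towards C3. Of 22 members of the glutathione and NRF2 list at 10 CPM, 5 passed 1.5-fold downward in C1 and 0 upward, and the median was -0.15. Of all genes at 10 CPM 5.41% passed downward and 3.17% upward. Srxn1, which repairs peroxiredoxins, stood at 36.8 and 84.1 CPM, and Hmox1, which degrades heme, at 79.9 CPM (76.2 to 83.9) and 167 CPM (162 to 173). Slc7a11, the cystine importer gene, stood at 176 and 309 CPM, Gclm, of glutathione synthesis, at 67.7 and 111 CPM, and catalase (Cat) at 18.6 and 29.0 CPM. The peroxiredoxin gene Prdx2 and the glutathione peroxidase genes Gpx1 and Gpx4 lay slightly on the other side, at 0.14, 0.31 and 0.33.

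Interferon response genes leaned towards C3 among non-cycling cells. Of 12 members at 10 CPM, 4 passed 1.5-fold downward and 0 upward, around a median of -0.47. For all genes at 10 CPM these shares were 5.41% and 3.17%. Among cycling cells 0 of 10 passed downward and 1 upward, around a median of -0.40, against 9.42% and 3.08% of all genes. The more abundant members stayed within 1.5-fold, with Bst2, which tethers virus particles, at 105 and 149 CPM. The antiviral membrane protein genes Ifitm3 and Ifitm2 stood at 135 and 183 CPM and at 229 and 208 CPM. Ifit1 stood at 8.77 CPM (7.55 to 10.1) in C1 and 21.6 CPM (19.6 to 23.7) in C3, yet it was seen in only 3.85% and 5.56% of thinned cells. Among cycling cells its log2 ratio was 0.66 (-0.04 to 1.41), the opposite direction. The chemokine gene Ccl5 stood at 58.1 and 82.9 CPM and was seen in 7.88% of thinned C1 and 6.90% of thinned C3 cells. H2-K1, a classical MHC class I gene, stood at 8.19 and 20.3 CPM, and B2m, the shared light chain of MHC class I, at 410 and 594 CPM. The extracellular enzyme gene Ptgds, which makes prostaglandin D2, stood at 1141 and 2063 CPM, and the phospholipase gene Pla2g2e at 6.48 CPM (5.44 to 7.66) and 35.4 CPM (32.9 to 38.1).

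Of the 8 secreted and signalling genes at 10 CPM 3 were lower, of the 6 MHC class I genes 1, and 0 of either were higher. Over all genes at 10 CPM, 5.41% were lower and 3.17% higher. In lists this short a single gene is a large share, so no trend is read from them.

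Most other lists were near level. The 41 nuclear-encoded respiratory chain genes, the 43 cytosolic ribosomal protein genes and the 25 proteasome genes had medians of 0.07, 0.02 and -0.01. A single ribosomal protein gene, Rps24, and the proteasome genes Psmb5 and Psmd8 were at least 1.5-fold lower. Rps24 and Psmb5 lie on chromosome 14. Among 14 glycolysis genes 1 was higher and 1 lower: hexokinase 1 (Hk1) stood at 26.6 and 10.0 CPM, and Ldhb, a lactate dehydrogenase gene, at 69.2 and 105 CPM. Of 20 ATF4 and amino acid response genes 3 were lower and 0 higher, and of 19 unfolded protein response genes 2 and 0. The MYC target and nucleolar list (20 genes), the hypoxia list (10), the ferritin and metallothionein list (6), the nuclear long noncoding RNAs (4) and the KDM5 demethylases (2) each had 1 lower member and 0 higher. Within 1.5-fold, the abundant ferritin genes were lower in C1, Fth1 at 8327 and 11283 CPM and Ftl1 at 17703 and 22679 CPM. The metallothionein genes were higher, Mt1 at 2053 and 1524 CPM and Mt2 at 633 and 515 CPM. The actin cytoskeleton list (17), the TGF-beta and Hippo targets (9) and the MAPK output genes (6) each had 1 higher and 0 lower, and the heat shock (18) and lysosome (27) lists 1 of each. None of the 12 mitochondrially encoded transcripts, 14 cyclins and cell cycle inhibitors, 13 p53 targets, 16 cholesterol genes or 25 splicing factor genes passed 1.5-fold, and the median of the last was -0.22.

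Kdm5b, the histone demethylase gene by which the authors' table sorts cells, stood at 12.6 CPM (11.2 to 14.2) in C1 and 20.3 CPM (18.4 to 22.4) in C3. The table calls 28 of 597 non-cycling C1 cells Kdm5b high (4.69%, 3.14 to 6.71) and 61 of 569 C3 cells (10.7%, 8.30 to 13.6). Genes such as Rps24, Ftl1, Fth1 and Tpt1 have near-identical copies in the genome, and no source used here says how shared reads were counted.

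By the share of dividing cells C1 lay between C3 and the cycling clusters. The authors' table calls 26.8% of C1 cells cycling (23.8 to 30.0) and 11.1% of C3 cells (8.77 to 13.8). Of all other 1766 B16F0 cells, which include the 641 cycling cells of C2 and 467 of C4, it calls 67.5% cycling (65.3 to 69.7). Against all those cells, 60 of 4977 genes (1.21%) passed 1.5-fold upward in C1 and 330 (6.63%) downward. The lowest were mitosis and replication genes, with the spindle gene Prc1 at 6.08 and 57.9 CPM and the topoisomerase gene Top2a at 27.7 and 172 CPM. The upper end of that comparison held S100a6 at 74.7 and 16.4 CPM, Fgd2 at 80.4 and 32.5 CPM, Rad54l at 108 and 46.7 CPM, and Mxd4, a MYC antagonist gene, at 101 and 47.0 CPM.

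Between non-cycling C1 and C3 cells the S phase list showed 0 of 29 genes past 1.5-fold, with a median of 0.14. The G2 and M list had 2 higher and 1 lower of 25, with a median of 0.15. Over all genes at 10 CPM, 3.17% were higher and 5.41% lower. The sign of both list medians depended on which C1 cells were taken. With those of trajectory state 6 alone they were -0.09 and -0.22, and with those of state 5 alone 0.70 and 0.95. Called by phase after thinning, 88.5% of non-cycling C1 cells (85.5 to 91.0) and 91.2% of C3 cells (88.4 to 93.5) were in G1. Non-cycling cells are those with no deposited S or G2M score above 0. The phase call scores S and G2 or M genes too, so high G1 shares follow from the choice of cells. The survivin gene Birc5 stood at 101 and 63.7 CPM and the mitosis gene Cdca3 at 172 and 108 CPM.

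The 219 cycling cells of C1 had lower levels of division genes than those of C2. Of 4992 genes 45 (0.901%) passed 1.5-fold upward in cycling C1 against C2 and 262 (5.25%) downward. At 10 CPM, where 76 of 7144 genes (1.06%) were higher and 432 (6.05%) lower, 41 of 50 G2 and M genes were lower and 0 higher around a median of -1.08. Of 44 S phase genes 16 were lower and 1 higher. Of 18 pigment genes 2 were higher in cycling C1 and 0 lower, with 16 above 0 and a median of 0.26. Pigment gene levels were thus not lowest in C1. Aurkb, a mitotic kinase gene, stood at 13.4 CPM in cycling C1 and 69.1 CPM in C2, and Prc1 at 15.9 and 80.8 CPM. Lgals3 stood at 52.9 and 17.1 CPM, S100a6 at 74.2 and 33.7 CPM, and Ccl5 at 71.2 and 27.6 CPM. By phase call, 65.6% of thinned cycling C1 cells were in S and 34.4% in G2 or M, against 60.0% and 40.0% in C2.

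Genes lower in C1 were not spread evenly over the genome. On chromosome 14, 143 genes with at least 20 CPM had a median log2 ratio of -0.72, with 139 below 0, 87 (60.8%) at least 1.5-fold lower and 0 at least 1.5-fold higher. Chromosome 1 followed with a median of -0.34 over 279 genes, then chromosome 2 at -0.20 over 363 and chromosome 7 at -0.17 over 311. The medians of the other 16 chromosomes lay between 0.01 and 0.10. All genes of chromosome 14 together gave 1.88% of the UMIs of non-cycling C1 cells and 2.94% of those of C3 cells. Against non-cycling B16F10 cells of C3, the same 143 genes had a median of -0.33 in C1 and 0.33 in B16F0 C3, so B16F10 lay between the 2 classes on the CPM scale. For chromosome 1 the corresponding medians were -0.38 and -0.06.

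The pattern recurred in cells outside the main comparison. Among cycling C1 and C3 cells the median of chromosome 14 was -0.74 and that of chromosome 1 was -0.41, with the other 16 chromosomes between -0.06 and 0.06. C2 against C4 gave -0.73 for chromosome 14. Cycling C1 against cycling C2 gave 0.01 for chromosome 14, and the medians of the 20 chromosomes lay between -0.13 and 0.01. C1 and C2 thus shared the low level of chromosome 14 transcripts. These are counts of RNA, and the reason for the pattern was not tested.

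**Figure D4:**
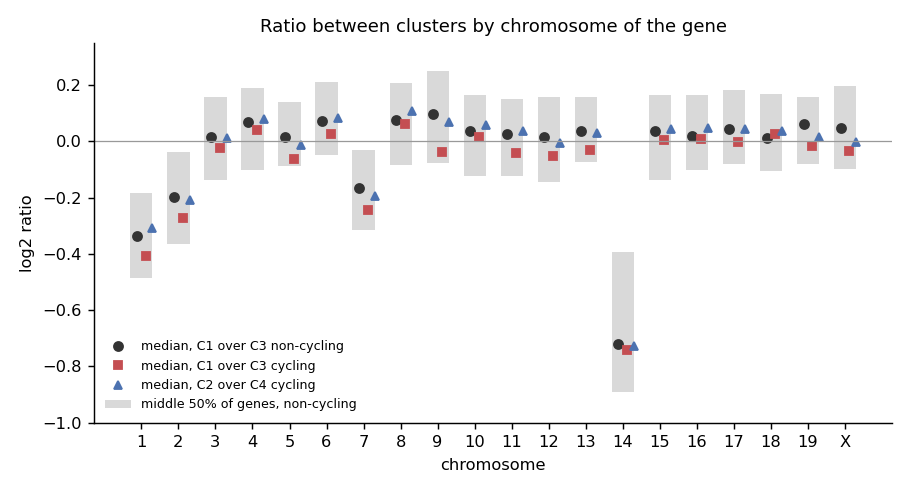
Median log2 ratio of the genes on each chromosome with at least 20 CPM, for C1 over C3 among non-cycling (circles) and cycling cells (squares) and for C2 over C4 (triangles), with grey bars for the middle 50% of genes in the first. Chromosome 14 lies at -0.72, -0.74 and -0.73, and chromosomes 1, 2 and 7 lie below 0 in all 3.

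Along chromosome 14 the shift came in stretches. In windows of 10 Mb with at least 5 genes, the medians were -0.78, -0.66, -0.77 and -0.81 in the 4 windows from 20 to 60 Mb and -0.82 from 70 to 80 Mb. They were -0.30 from 10 to 20 Mb, -0.29 from 60 to 70 Mb, -0.34 from 100 to 110 Mb and -0.16 from 120 to 130 Mb. From 70 to 80 Mb, 15 of 17 genes were at least 1.5-fold lower, and from 60 to 70 Mb 1 of 12. The cycling cells gave -0.90 and -0.29 in those 2 windows. Chromosome 1 was more even, with medians between -0.45 and -0.26 in its 10 windows of 20 Mb, and chromosome 2 had one window, from 0 to 20 Mb, at 0.02 and the rest between -0.40 and -0.14. Tpt1, an abundant growth-related gene at 75845093 to 75848525 on chromosome 14, stood at 2259 CPM (2238 to 2279) in C1 and 4553 CPM (4524 to 4583) in C3. Single genes departed from their neighbours, with Lgals3 at -2.79 and Kctd12, a potassium channel domain gene, at -2.48 among the lowest. Dct, at the distal end, lay at -0.74.

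The shift was visible in single cells. The share of a cell's UMIs from 490 chromosome 14 genes, leaving out Tpt1, Rps24 and the genes named at either end, had a median of 1.46% in non-cycling C1 cells, with 90% of cells between 1.26% and 1.75%. In non-cycling C3 cells the median was 2.20%, with 90% between 1.61% and 2.59%. The classes overlapped at their edges: 22 of 597 C1 cells (3.69%, 2.32 to 5.53) lay above the midpoint of the 2 medians, 1.83%, and 475 of 569 C3 cells (83.5%, 80.2 to 86.4) did. The midpoint was set from these same 2 classes, so their 2 shares describe the overlap only. Of the cycling cells of C1, C2, C3 and C4, 5.94%, 2.65%, 87.3% and 84.2% lay above the midpoint. B16F10 cells of C3 had a median of 1.80%, close to the midpoint. The 94 C3 cells at or below the midpoint held Rad54l in 20.2% (12.6 to 29.8) and Tyr in 83.0% (73.8 to 89.9), against 6.74% and 91.8% of the other 475. The 22 C1 cells above it had Rad54l at 44.7 CPM and held Tyr in 63.6% (40.7 to 82.8), against 114 CPM and 38.1% for the other 575. Both values of the 22 cells lay between those of the other C1 cells and those of C3. In CPM, S100a6, Lgals3 and Fam178b also moved towards the other cluster in the 94 and the 22 cells, but Mbp did not. Mbp stood at 84.7 CPM in the 94 C3 cells and 93.8 CPM in the 475. In C1 it was nearly level, at 277 CPM in the 22 cells and 284 CPM in the 575, though seen in 77.3% and 98.4% of them. Unthinned counts were used here, with median depths of 28348 and 33440 UMIs for the 22 and the 575 C1 cells. For the 94 and the 475 C3 cells the median depths were 36456 and 33631 UMIs. The shares of cells were not adjusted for these depths.

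**Figure D5:**
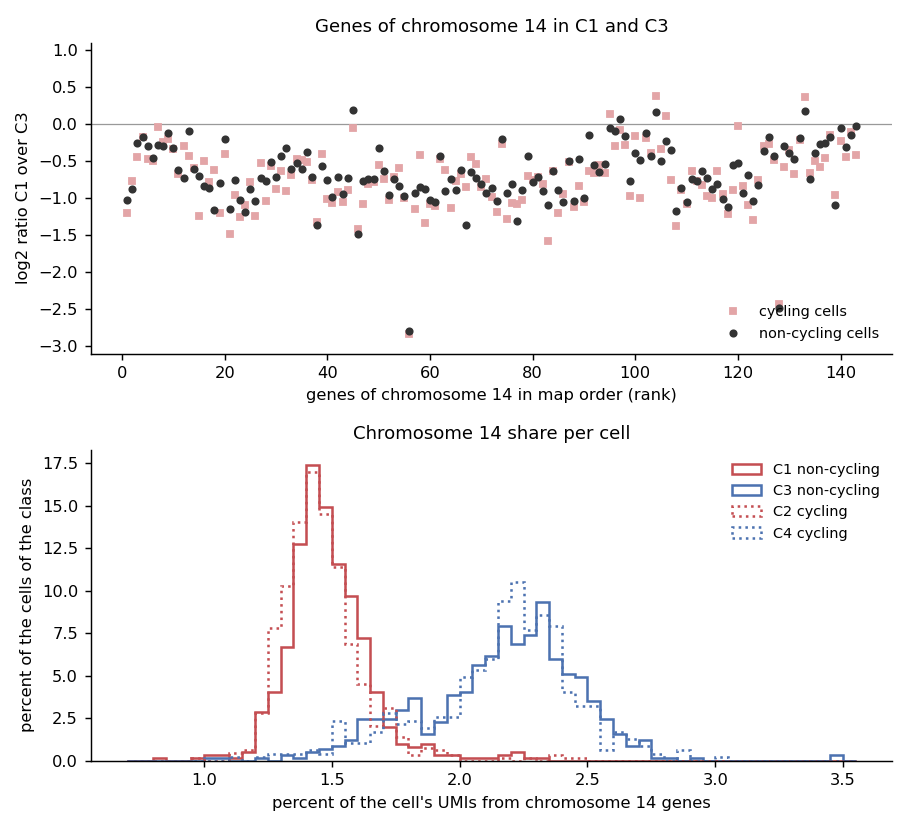
Top, log2 ratio of C1 over C3 for 143 genes of chromosome 14 in map order, in non-cycling (black) and cycling (pink) cells. Bottom, distribution over cells of the percent of UMIs from 490 chromosome 14 genes, with C1 (median 1.46%) and C2 together at the left and C3 (median 2.20%) and C4 at the right.

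Non-cycling C1 cells fell mainly into 2 trajectory states of the authors' table, state 6 with 433 cells and state 5 with 140, and 24 were in state 7. In C3 409 of 569 non-cycling cells were in state 7. The deposited pseudotime had a median of 13.0 in non-cycling C1 cells and 15.3 in C3 cells. Within C1, 153 of 4749 genes (3.22%) passed 1.5-fold upward in state 5 against state 6 and 29 (0.611%) downward. Those higher in state 5 were led by genes of the cell cycle. The centromere histone gene Cenpa stood at 194 CPM in state 5 and 37.3 CPM in state 6, the replication factor gene Pclaf at 96.0 and 20.5 CPM, and Birc5 at 234 and 59.9 CPM. Lower in state 5 were the translation inhibitor gene Pdcd4 at 27.2 and 57.7 CPM, Mxd4 at 77.1 and 126 CPM, and Tyr at 18.3 and 29.8 CPM. Lgals3 was lower in state 5 too, at 15.1 and 28.6 CPM, a log2 ratio of -0.92 (-1.29 to -0.57). Rad54l, Fam178b, Mbp and S100a6 differed by at most 0.28 between the states on the log2 scale. The median share of chromosome 14 was 1.45% in state 5 and 1.46% in state 6.

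Between the cycling and the non-cycling cells of C1, 314 of 6933 genes at 10 CPM (4.53%) passed 1.5-fold upward in cycling cells and 64 (0.923%) downward. Of 18 pigment genes 0 passed in either direction, with a median of 0.01, a count near those shares.

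Some genes varied far more between C1 cells than counting would give. The Fano factor, the variance over the mean of thinned counts, would be 1 for counting alone. It was 99.4 for Ccl5, which reached 175 UMIs in 1 cell and was absent from most, and the top 1% of C1 cells held 77.9% of its UMIs. Cxcl10 and Ifit1, both interferon targets, had factors of 52.8 and 49.5 and were seen in 3.30% and 3.85% of cells. The nuclear RNA Malat1 (68.4), the ferritin genes Ftl1 (49.5) and Fth1 (33.8), the actin gene Actb (35.2), Ptgds (26.4), mt-Atp6 (26.2) and the protease inhibitor gene Cst3 (22.1) were abundant in nearly all cells. Among C3 cells the factor was 2.99 for Cst3, 19.1 for Cxcl10 and 18.3 for Ifit1, and 91.3 for Ccl5. Cst3 stood at 1040 CPM (1026 to 1054) in C1 and 574 CPM (563 to 584) in C3. Its highest thinned count was 262 UMIs in C1 and 47 in C3, and its medians were close, at 13 and 10 UMIs.

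B16F10 had almost no cells of C1. The table gives 7 of its 1574 cells that name, with mitochondrial shares from 8.63% to 17.9%, and Rad54l was seen in 1 of them, Lgals3 in 7 and Ppargc1a, a coactivator of mitochondrial biogenesis, in 6. Set beside the non-cycling B16F10 cells of C3, all 15 upper genes were lower in B16F10 than in C1, among them Rad54l at 2.10 CPM, Fgd2 at 1.32 CPM and Fam178b at 14.9 CPM. Of the 15 lower genes 10 were higher in B16F10 than in C1, such as Lgals3 at 837 CPM and Ero1l at 227 CPM. One of these 10, Tyr, was level, at 28.4 CPM in B16F10 and 28.3 CPM in C1. Apoe was lower in B16F10 than in either cluster, at 314 CPM. Line and library cannot be told apart in this reading.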

How the data were processed

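The data are raw UMI counts of 14959 genes in 4156 cells and a table of cells, both as deposited by the authors. Per the submitters' processing notes, Cell Ranger 3.0.0, Seurat 3.0 and the build mm10 were used. The clusters, cycling classes, trajectory states, the S and G2M scores, pseudotime and the MITF score were assigned by the authors, and no source used here gives their settings. In the deposited table a cell is cycling where its S or G2M score is above 0. The deposited cells hold at least 3012 genes and at most 19.7% mitochondrial UMIs.

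UMIs were summed per class and given as CPM with exact Poisson intervals, and log2 ratios with exact conditional binomial intervals, at 95%. Shares of cells have Clopper-Pearson intervals. These cover counting error only. Genes were compared at 20 CPM, list members at 10 CPM and called at 1.5-fold, with no test, since each line is 1 library. Ranges of UMIs, shares and phases across cells used cells thinned to 19718 UMIs, the 10th percentile, which left out 259 B16F0 cells. No doublet caller was run. Positions came from GENCODE on GRCm38, where 98.6% of symbols matched 1 gene.

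Named genes were the 15 highest and 15 lowest at 50 CPM without predicted, ribosomal protein and mitochondrial genes, the 3 members of each of 32 lists furthest from 0, 20 fixed genes and the 10 with the largest Fano factor. Other genes were named after their values were seen. The members, the lists and the fixed genes were chosen with earlier results of these data known. The calculation was run on simulated data with 14959 genes, drawn with Poisson counting error only at the summed depth of C1 and C3. There 100 of 100 genes changed 2-fold and 100 of 100 changed 4-fold were found, and 0 unchanged genes were called. The changed genes had 20 CPM or more. Variation between cells and the clustering were not simulated, so this checks the calculation and not the differences between clusters. Phases were called with scanpy 1.11.5 and intervals computed with scipy 1.17.1, under Python 3.11.15 with pandas 2.3.3, numpy 2.4.6 and matplotlib 3.10.9. Alternative scaling factors came from edgeR 4.0.16 and DESeq2 1.42.0 in R 4.3.3.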

Additional observations from a re-analysis of the deposited data

How the results depend on the processing

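Other scalings, depth and mitochondrial limits, phase, comparison cells and thinning left the counts of 137 higher and 252 lower genes within 1.5 times. The number of genes tested moved them more: with a minimum of 10 CPM 220 were higher, with 100 CPM 33 were higher and 63 lower, and with no minimum beyond 3 counts 1365 and 1530. Among cycling cells only, 402 genes were lower. Without chromosome 14, 165 were lower, and with each chromosome's median subtracted 133. With C1 cells of state 5 only, 302 were higher. The settings on chromosome 14 and the states were added after seeing the data. Of 72 named genes past 1.5-fold, 3 turned in 1 setting each: Ifit1 had a log2 ratio of 0.66 among cycling cells only, Gnl3 0.11 with chromosome medians subtracted, and Birc5 -0.088 with C1 cells of state 6 only. For Ifit1 and Birc5 the cause was not tested. The median of chromosome 14 lay between -0.74 and -0.63 in 17 settings, leaving out those that removed its genes or subtracted chromosome medians. The S phase list median and the G2 and M list median ran from -0.12 to 0.70 and from -0.22 to 0.95, and that of the interferon list from -0.87 to -0.33. The median of the pigment genes was -0.41 in place of -0.56 once chromosome medians were subtracted. No paired analysis was possible because each line is 1 library. Depth limits genes under 20 CPM, for which counting intervals are wide, and an effect of the library cannot be told apart from the line.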

Other observations

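Several genes with 20 to 50 CPM in the higher class also differed between non-cycling C1 and C3 cells, and those given here were chosen after their values were seen. Hs3st1, a heparan sulfate sulfotransferase gene, stood at 0.905 CPM in C1 and 21.0 CPM in C3, a log2 ratio of -4.53. The receptor phosphatase gene Ptprb stood at 2.62 and 41.0 CPM, the developmental cofactor gene Eya1 at 1.95 and 29.1 CPM, and the adaptor gene Shc4 at 3.95 and 41.9 CPM. The lysophospholipase D gene Enpp2 and the monoacylglycerol lipase gene Mgll had log2 ratios of -3.16 and -2.74. In the other direction Hrct1 stood at 27.7 CPM in C1 and 1.64 CPM in C3. The kinase gene Prkg2 stood at 33.5 and 4.77 CPM, and Aldh1a3, which makes retinoic acid, at 21.6 and 3.33 CPM. The guidance factor gene Sema3c and the vessel factor gene Angpt2 had log2 ratios of 2.36 and 1.88.

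Tmsb4x, an abundant actin-binding peptide gene in many tissues, stood at 0.191 CPM in non-cycling C1 cells and 4.82 CPM in non-cycling C3 cells, against 82.1 CPM in non-cycling B16F10 cells of C3.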
